A study of Mus musculus with 4 samples.

Results

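ATP-dependent chromatin remodelers are enzymes that slide, eject or exchange nucleosomes, and each works within a complex of partner subunits. Transcripts of 46 mouse genes of these complexes, chosen by gene symbol and not by their values, were followed in type 3 innate lymphoid cells (ILC3s) with and without Brg1, among 53379 genes in all. Of the 46 genes, 26 encode SWI/SNF subunits and 20 encode remodelers of the ISWI, CHD and INO80 families, their partner subunits and other remodeling ATPases. The comparison asks whether the paralog or the partner subunits of Brg1 are transcribed at another level when Brg1 is lost.

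Bone marrow of 2 donor strains, both Rag1-/- and both carrying the floxed Smarca4 allele (f/f), was mixed and transferred into sublethally irradiated Rag2-/-Il2rg-/- hosts, which lack lymphocytes of their own. The floxed allele was intact in the Brg1-sufficient donor (Thy1.2, the control) and was deleted in ILC3s of the Brg1-deficient donor (Thy1.1/1.2). ILC3s of both origins were sorted from the small intestinal lamina propria as Thy1.2high CD45low cells and separated by Thy1.1, and the labels give 2 libraries to each group (n = 2 throughout). The Thy1.1 allele and the means of deletion are found in the Brg1-deficient group alone, so they cannot be told apart from the loss of Brg1. The age of the animals and whether libraries of the same number came from the same hosts are not given in the sources used here, and p-values measure only the spread between these libraries.

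SWI/SNF complexes hold one of the ATPases Brg1 (encoded by Smarca4) or Brm (Smarca2) on a shared core. They are sorted into canonical BAF, polybromo-containing PBAF and non-canonical BAF by signature subunits such as Arid1a, Pbrm1 and Brd9. ISWI enzymes space nucleosomes, the CHD enzymes Chd3 and Chd4 drive the deacetylase complex NuRD, and the INO80 family exchanges the histone variant H2A.Z.

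Levels were read as FPKM, the fragments scaled by the length of the transcript and by the mapped fragments of the library, which is a scale per length on which different genes can be set side by side. The 4 libraries listed between 30046 and 36929 genes above 0, and their depth is unknown. Across all tested genes, Brg1-sufficient library 1 stood apart, with Pearson correlations across genes of 0.93 to 0.948 with the other libraries, against 0.951 to 0.966 among those, so the genes whose direction rests on it are named below. The ILC3 markers were present in all 4 libraries, Il23r at 268 and 247 FPKM in the Brg1-sufficient and 227 and 209 FPKM in the Brg1-deficient libraries. Summed markers listed for other cell types differed between the libraries. Of the ILC1 and NK list, Ncr1 (which encodes NKp46), Tbx21 (T-bet) and Ifng are also expressed by the NKp46+ subset of ILC3s. The paper found a smaller part of NKp46+ cells among Brg1-deficient ILC3s of the small intestine in mixed chimeras. The summed level of 10 ILC1 and NK markers was 269 and 373 FPKM in the Brg1-sufficient and 260 and 249 FPKM in the Brg1-deficient libraries, and 2 of the 9 tested (Ncr1 and Ifng) were lower at an adjusted p under 0.05 from limma. Their median log2 fold change was -1.54, 8 of the 9 lay below 0, and Klrk1 alone lay above it, at 105 and 113 against 165 and 190 FPKM (adjusted p = 0.143, limma). The sum of 10 ILC2 markers was 367 and 208 against 116 and 141 FPKM, and that of 9 T cell markers was 207 and 118 against 123 and 115 FPKM, so both were highest in Brg1-sufficient library 1. Gata3 was the largest part of the ILC2 sum, at 183 and 110 against 74.5 and 105 FPKM. Of the 9 tested ILC2 markers, 8 lay below 0, and Hpgds alone lay above it, at 2.31 and 6.61 against 20.6 and 19.9 FPKM (adjusted p = 0.129, limma). Lat held most of the T cell sum, at 115 and 90.7 against 113 and 88.9 FPKM. All 6 tested T cell markers lay below 0, and Cd3e, Cd3d and Cd3g were lower without overlap (adjusted p = 0.184, 0.316 and 0.244, limma). The sum of 9 myeloid markers was 939 and 1030 against 851 and 1070 FPKM, and that of 9 epithelial markers was 12.2 and 11.4 against 23.6 and 22.6 FPKM. Fcer1g held most of the myeloid sum, at 834 and 797 against 774 and 852 FPKM, and 6 of the 8 tested myeloid markers lay below 0. Most of the epithelial difference came from Krt18, at 2.02 and 3.48 against 15.7 and 12.9 FPKM (adjusted p = 0.0677, limma), while Epcam had the opposite sign (log2 fold change -0.72, adjusted p = 0.462) and 5 of the 9 were below 1 FPKM in every library. Of the B cell markers, Cd79b was lower at 8.68 and 10.02 against 1.03 and 0.99 FPKM (adjusted p = 0.0386, limma), Blk was at 56.2 and 69.5 against 34.4 and 45.8 FPKM (adjusted p = 0.302, limma), and Ms4a1, Cd79a and Pax5 were below 1 FPKM in every library. The paper states that Rag1-/- mice lack T and B cells, and both donors were Rag1-/-. The T and B cell lists are therefore named for cells that the donors lacked. In bulk libraries, fewer cells of a type or ILC3 subset and less RNA per cell cannot be told apart. The part of these markers in the values below was not tested.

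Of the 46 remodeler genes, 41 had a mean above 1 FPKM in either group and were tested, and none of the 41 was lower or higher in Brg1-deficient ILC3s at an adjusted p under 0.05 (limma with Benjamini-Hochberg adjustment over 14739 genes), where 0.224% of all tested genes were lower and 0.0814% were higher. At an unadjusted p under 0.05 from limma, 3 of the 41 were lower (Smarca4, Hells and Chd4, 7.32%), beside 6.47% of all tested genes, and 1 was higher (Chd9, 2.44%), beside 6.12%. Without Brg1-sufficient library 1, the library that stood apart, 4 were lower and 2 were higher at an unadjusted p under 0.05, beside 7.68% and 5.52% of all tested genes in the same fit. Without Brg1-sufficient library 2 the numbers were 6 and 1, beside 11.1% and 9.95%. They were 2 and 0 without either Brg1-deficient library, beside 3.38% and 5.07% without the first and 3.57% and 4.89% without the second. Smarca4 alone was under 0.05 in all 4 of these fits. The fits without Brg1-sufficient library 2 and without Brg1-deficient library 1 each held 42 remodeler genes. Dpf3, at 1.15 FPKM in the control that was left, entered the first and is among its lower genes, and Smarcd3, at 1.02 FPKM in Brg1-deficient library 2, entered the second. With all libraries, the median log2 fold change of the 41 genes was -0.08, beside 0.03 for all tested genes, and 39 of the 41 (95.1%) lay within 0.5 of 0 on the log2 scale, beside 74.6% of all tested genes and 81.8% of protein-coding genes. The remodeler genes were also more highly expressed, with a median of 17.2 FPKM beside 7.65 FPKM for all tested genes, and their median standard error was 0.18 on the log2 scale beside 0.24.

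**Figure D1:**
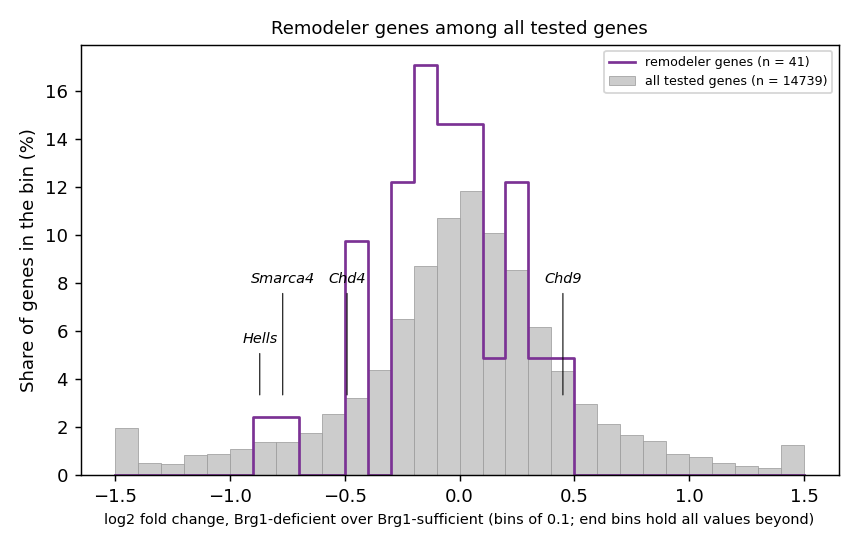
The log2 fold change (Brg1-deficient over Brg1-sufficient ILC3s, x axis, bins of 0.1) against the share of genes in each bin (y axis, %), for all 14739 tested genes (grey bars) and the 41 tested remodeler genes (purple line). The remodeler genes run from -0.87 (Hells) to 0.45 (Chd9), and 2 of them, Hells and Smarca4, lie beyond 0.5 from 0.

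The means over the 4 libraries were above 100 FPKM for 3 genes, Chd2, Atrx and Chd9, between 10 and 100 FPKM for 25, between 1 and 10 FPKM for 13 and at most 1 FPKM for 5. The summed level of all 46 genes was 1170 and 1100 FPKM in the Brg1-sufficient and 1130 and 1130 FPKM in the Brg1-deficient libraries, and that of the 26 SWI/SNF genes was 480 and 466 against 466 and 458 FPKM.

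**Figure D2:**
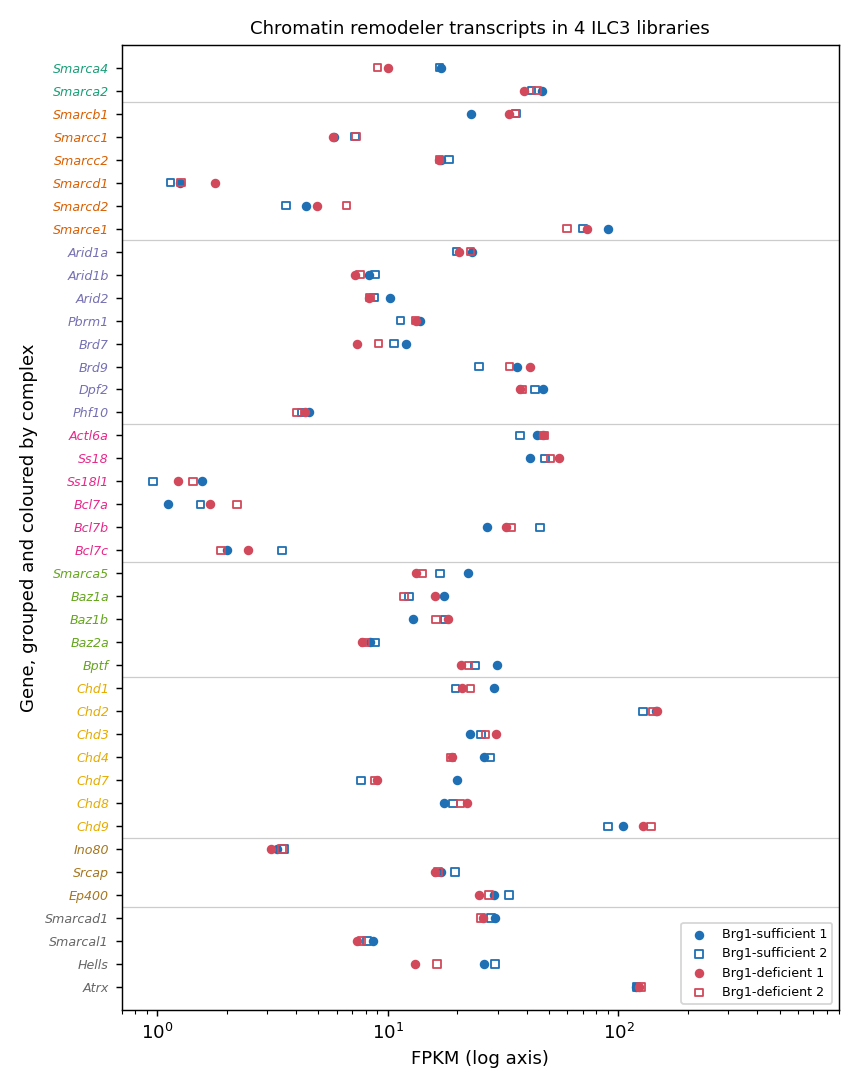
FPKM (x axis, log scale) of the 41 tested remodeler genes (rows, grouped and coloured by complex) in each of the 4 libraries, with Brg1-sufficient libraries in blue, Brg1-deficient ones in red, library 1 filled and library 2 open. Smarca4, Hells and Chd4 sit to the left in both red libraries, Chd9 to the right, and Chd7 is high in Brg1-sufficient library 1 alone.

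Smarca4, the deleted gene, measured 17.1 and 16.7 FPKM in controls and 9.98 and 9.03 FPKM in Brg1-deficient cells. Both Brg1-deficient libraries were below both controls, in the direction of their labels, and their mean was 56.2% of the Brg1-sufficient mean (16.9 ± 0.24 against 9.5 ± 0.672 FPKM, SD). The log2 fold change was -0.77 ± 0.16 (standard error, SE, 95% confidence interval -1.18 to -0.36, unadjusted p = 0.00436, adjusted p = 0.153, limma). Deletion at floxed sites removes part of a gene, and a value for the whole gene does not separate transcripts of the recombined allele from intact ones. Bases before the start of Smarca4 and of its paralog Smarca2 in the RefSeq annotation of GRCm38.p6 are shown because these 2 genes bear on the question of substitution. Each stretch begins 250 bases before that start and is cut before the first base that GENCODE places in the gene. The Smarca2 stretch therefore ends short of its RefSeq start. Capitals mark the GC box GGGCGG on either strand. Both stretches come from the plus strand, that of Smarca4 from chr9:21615919-21616168 and that of Smarca2 from chr19:26604910-26605049.
Smarca4: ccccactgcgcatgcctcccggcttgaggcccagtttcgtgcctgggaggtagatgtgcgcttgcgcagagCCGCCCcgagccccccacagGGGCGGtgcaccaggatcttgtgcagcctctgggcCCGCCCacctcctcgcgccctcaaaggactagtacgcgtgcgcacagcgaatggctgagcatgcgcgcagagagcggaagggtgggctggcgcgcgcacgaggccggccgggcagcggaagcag
Smarca2: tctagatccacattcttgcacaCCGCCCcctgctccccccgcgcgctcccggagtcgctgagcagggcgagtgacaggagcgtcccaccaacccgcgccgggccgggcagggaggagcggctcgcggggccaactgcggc
The Smarca4 stretch has 3 GC boxes in 250 bases and 70.8% G and C, and the Smarca2 stretch has 1 in 140 bases and 73.6%. The 2 stretches end at unlike distances from the RefSeq start, so these counts are not for the same region.

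Smarca2, which encodes the alternative ATPase Brm, was the more abundant of the 2 transcripts already in controls, at 46.8 and 42.0 FPKM, and was at 39.1 and 44.4 FPKM without Brg1. Its groups overlapped, with a log2 fold change of -0.09 ± 0.15 (SE, adjusted p = 0.843, limma). The 95% confidence interval of -0.47 to 0.30 reached up to 0.30 on the log2 scale and does not show equal levels. The share of Smarca2 in the summed FPKM of both genes was 73.3% and 71.5% in controls and 79.7% and 83.1% in Brg1-deficient cells, a difference of 9.0 percentage points between 72.4 ± 1.23% and 81.4 ± 2.42% (SD). The 2 groups did not overlap, and the exact two-sided permutation test gave p = 0.333, the smallest that 2 libraries against 2 allow. Smarca4, the deleted gene, is part of this sum. A lower Smarca4 level raises the share by itself, so the higher share does not show more Smarca2. The summed FPKM of both ATPases was 63.8 and 58.7 in controls and 49.1 and 53.4 in Brg1-deficient cells.

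Among 12 pairs of related genes compared in this way, the groups did not overlap in 4, and each of these 4 tests gave the same smallest p of 0.333 in the exact permutation test, so that no pair could pass adjustment. That 0.333 is also the share of all arrangements of the 4 libraries that separate the groups, and 44.6% of single tested genes did not overlap in either direction. The 4 pairs are therefore described and not called as changed. The share of Chd4 in the summed FPKM of Chd3 and Chd4, the alternative ATPases of NuRD, was 53.7% and 52.3% in controls and 39.1% and 41.6% without Brg1, lower by 12.7 points on average. The share of Brd9, a bromodomain subunit of non-canonical BAF, in the sum with its relative Brd7 of PBAF was 75.3% and 70.0% in controls and 85.0% and 78.7% without Brg1. The share of Phf10 in the sum with Dpf2, both of which carry PHD fingers, was 8.82% and 8.85% in controls and 10.5% and 9.53% without Brg1. The other 8 pairs overlapped. Smarcc2 made up 69.7% to 74.6% of its sum with Smarcc1 in every library, and Arid1b 24.9% to 30.8% of its sum with Arid1a. Actl6b, known as the neuronal counterpart of Actl6a, and Smarca1 made up at most 1.69% and 1.98% of the sums with Actl6a and Smarca5.

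**Figure D3:**
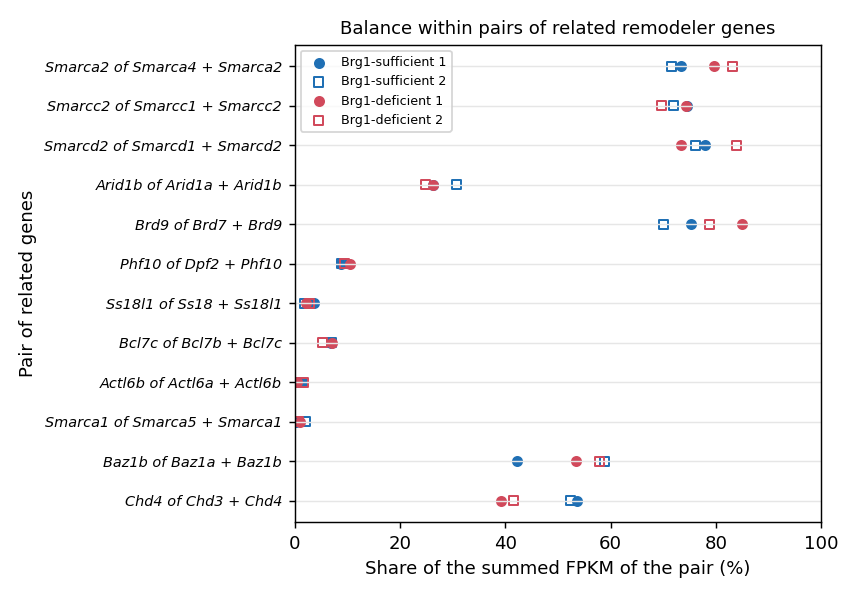
Share of the named gene in the summed FPKM of each of 12 pairs of related genes (x axis, %) in every library, with Brg1-sufficient libraries in blue, Brg1-deficient ones in red, library 1 filled and library 2 open. The red points lie to the right of the blue ones for Smarca2, Brd9 and Phf10, to the left for Chd4, and overlap with them in the other 8 pairs.

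The shared SWI/SNF core gave 6 tested genes, with log2 fold changes from -0.27 to 0.43 and a median of 0.10. Smarcb1, a core subunit that contacts the nucleosome, was at 23.0 and 36.0 FPKM in controls and at 33.6 and 35.7 FPKM in Brg1-deficient cells. Brg1-sufficient library 1 alone was low, and the log2 fold change of 0.26 ± 0.24 (SE, adjusted p = 0.682, limma) became -0.05 without that library. Smarcd2, one of 3 alternative genes for the same core position, was at 4.40 and 3.62 FPKM in controls and at 4.92 and 6.62 FPKM without Brg1. Its groups did not overlap, and the log2 fold change of 0.43 ± 0.24 (SE, adjusted p = 0.533, limma) was 0.25 without Brg1-deficient library 2. The scaffold subunits Smarcc1 and Smarcc2 had log2 fold changes of 0.00 (95% confidence interval -0.55 to 0.55) and -0.08 (-0.47 to 0.31), and Smarce1, which carries an HMG domain, of -0.27 (-0.74 to 0.21). Smarcd1, at 1.14 to 1.78 FPKM, was nearly as low as Smarcd3, which lay between 0.35 and 1.02 FPKM and was not tested.

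The signature subunits, which give each SWI/SNF assembly its identity, gave 8 tested genes with log2 fold changes from -0.42 to 0.30 and a median of -0.11. In canonical BAF, Arid1a was at 23.2 and 19.8 FPKM in controls and at 20.3 and 22.9 FPKM without Brg1, with overlapping groups, and Arid1b at 8.24 and 8.80 against 7.23 and 7.58 FPKM, without overlap. In PBAF, Pbrm1 overlapped between the groups at 11.4 to 13.7 FPKM, while Arid2 (10.2 and 8.72 against 8.25 and 8.35 FPKM) and Brd7 (12.0 and 10.6 against 7.34 and 9.11 FPKM) were lower in both Brg1-deficient libraries. Of these, Brd7 had the larger log2 fold change, -0.42 ± 0.19 (SE, adjusted p = 0.464, limma), which was -0.28 without Brg1-deficient library 1. Brd9 of non-canonical BAF was at 36.5 and 24.8 FPKM in controls and at 41.5 and 33.7 FPKM without Brg1. The groups overlapped, and the log2 fold change of 0.30 ± 0.23 (SE, adjusted p = 0.63, limma) was 0.04 without Brg1-sufficient library 2 and 0.57 without library 1. Dpf2, a reader of histone modifications, was at 47.2 and 43.5 FPKM against 37.3 and 38.4 FPKM (adjusted p = 0.533, limma), and Phf10 of PBAF at 4.04 to 4.56 FPKM in all libraries. The Dpf2 relatives Dpf1 and Dpf3 were at or below 1.15 FPKM in every library and were not tested.

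The ATPase module and accessory subunits gave 6 tested genes with log2 fold changes from -0.21 to 0.34 and a median of 0.13. Actl6a, an actin-related protein that binds the ATPase, was at 44.2 and 37.3 FPKM in controls and at 46.9 and 47.7 FPKM without Brg1, and Ss18 was at 41.2 and 48.1 against 55.3 and 50.8 FPKM. Both were higher in both Brg1-deficient libraries, with adjusted p of 0.617 and 0.587 from limma. Bcl7a was higher without overlap at a low level, 1.11 and 1.54 against 1.69 and 2.21 FPKM (log2 fold change 0.34 ± 0.30 SE, adjusted p = 0.675, limma), with a log2 fold change of 0.21 without Brg1-sufficient library 1 and 0.22 without Brg1-deficient library 2. Bcl7b, the most abundant of the 3 Bcl7 genes, was at 26.9 and 45.7 FPKM in controls and at 32.6 and 34.3 FPKM without Brg1, within the spread of the controls. Bcl7c and Ss18l1 were at 0.96 to 3.48 FPKM with overlapping groups, and Actl6b, at 0.05 to 0.82 FPKM, was not tested.

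Over the 22 tested SWI/SNF genes, 6 were lower and 5 were higher in both Brg1-deficient libraries than in both controls. Over all 41 tested remodeler genes, 15 (36.6%) were lower without overlap, beside 20.2% of all tested genes, and 9 (22.0%) were higher, beside 24.4%, which makes 58.5% in either direction beside 44.6%. Leaving out Smarca4, the median log2 fold change of the SWI/SNF genes was 0.00 with a range of -0.42 to 0.43. Signs were not stable for all genes, since 26 of the 41 kept the sign of their log2 fold change in all 4 fits with 1 library removed. The values of those fits were rounded first, and a rounded 0.00 counted as a sign not kept. Smarca2 and Phf10 are outside the 26 through such a 0.00 alone, and Smarcc1 was at 0.00 with all libraries. Without Brg1-sufficient library 1, the sign changed for 6 genes, Baz1a, Baz1b, Chd1, Chd7, Smarcb1 and Smarcc1, and without Brg1-sufficient library 2 for 6 others, Arid1a, Bcl7b, Bcl7c, Chd2, Pbrm1 and Ss18l1.

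**Figure D4:**
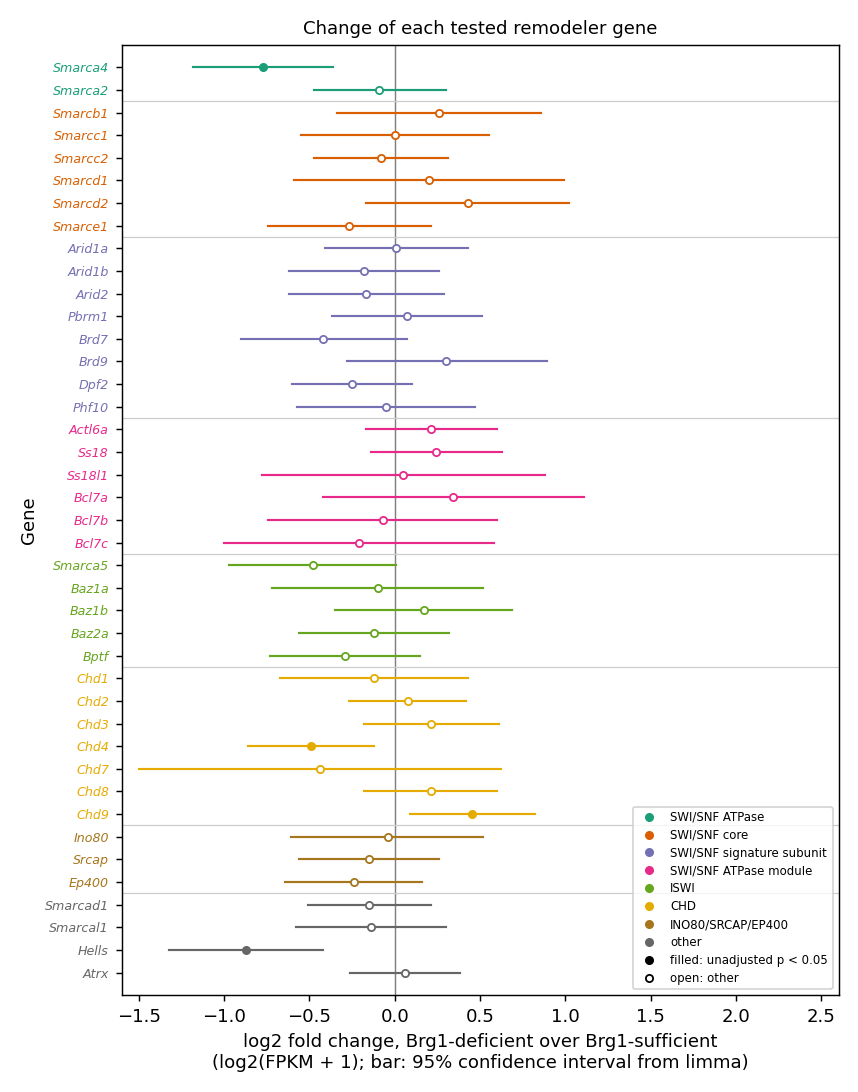
Log2 fold change (x axis, Brg1-deficient over Brg1-sufficient, on log2(FPKM + 1)) of the 41 tested remodeler genes (rows, coloured by complex), with points for the estimate and bars for the 95% confidence interval from limma (filled points, unadjusted p under 0.05). The intervals of Smarca4, Hells, Chd4 and Chd9 lie on one side of 0, and that of Chd7 is the widest.

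Of the ISWI genes, 5 were tested, with a median log2 fold change of -0.12. Smarca5, the main ISWI ATPase, was at 22.3 and 16.8 FPKM in controls and at 13.2 and 14.1 FPKM without Brg1, with no overlap. The log2 fold change was -0.48 ± 0.19 (SE, 95% confidence interval -0.97 to 0.01, adjusted p = 0.407, limma), and it was -0.28 without Brg1-sufficient library 1. Bptf, the large subunit of the ISWI complex NURF, was also lower in both Brg1-deficient libraries, at 29.8 and 23.8 against 20.8 and 22.4 FPKM (log2 fold change -0.29, adjusted p = 0.568, and -0.13 without Brg1-sufficient library 1 or -0.45 without library 2), as was Baz2a, which pairs with Smarca5 in the nucleolar complex NoRC, at 8.37 and 8.84 against 7.70 and 7.95 FPKM (-0.12, adjusted p = 0.804, both from limma). Baz1a and Baz1b, other partners of Smarca5, overlapped between the groups at 11.8 to 18.3 FPKM. Smarca1, the alternative ISWI ATPase, was at 0.04 to 0.34 FPKM and was not tested.

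The 7 CHD genes held values in both directions, from -0.49 to 0.45 on the log2 scale. Chd4, a NuRD ATPase required by developing lymphocytes, was at 26.2 and 27.8 FPKM in controls and at 19.0 and 18.8 FPKM without Brg1. The separation was wide against the spread within groups (27.0 ± 1.15 and 18.9 ± 0.0849 FPKM, SD), and the log2 fold change was -0.49 ± 0.15 (SE, 95% confidence interval -0.86 to -0.12, unadjusted p = 0.0181, adjusted p = 0.267, limma). Chd3, which can take the place of Chd4 in NuRD, was at 22.6 and 25.4 FPKM in controls and at 29.6 and 26.5 FPKM without Brg1, higher in both libraries, with a log2 fold change of 0.21 (adjusted p = 0.623, limma).

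Chd9, a little-studied member of the family, was among the most abundant remodeler transcripts at 104 and 90.0 FPKM in controls and at 128 and 138 FPKM without Brg1. Both Brg1-deficient libraries were above both controls, and the log2 fold change was 0.45 ± 0.15 (SE, 95% confidence interval 0.09 to 0.82, unadjusted p = 0.0243, adjusted p = 0.308, limma). Chd8, a relative of Chd9 and Chd7, was at 17.6 and 19.1 against 22.1 and 20.7 FPKM, also without overlap (0.21, adjusted p = 0.623, limma). Chd7 was at 19.9 FPKM in Brg1-sufficient library 1, at 7.63 FPKM in Brg1-sufficient library 2 and, without Brg1, at 8.98 and 8.79 FPKM. The log2 fold change of -0.44 ± 0.42 (SE, adjusted p = 0.696, limma) was 0.20 without the first control and -1.08 without the second, so 1 library decided its sign. That library also held the highest sums of ILC2 and T cell markers given above, and their part in the Chd7 value was not tested. Chd1, which binds methylated histone tails at active genes, was at 19.7 to 28.7 FPKM and Chd2 at 128 to 148 FPKM, and both overlapped.

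Hells, a remodeling ATPase needed for DNA methylation at repeats and expressed in dividing cells, had the largest log2 fold change, by size, of the 41 genes. It was at 26.0 and 29.1 FPKM in controls and at 13.1 and 16.3 FPKM without Brg1, with no overlap, and the Brg1-deficient mean was 53.3% of the control mean (27.5 ± 2.16 against 14.7 ± 2.27 FPKM, SD). The log2 fold change was -0.87 ± 0.18 (SE, 95% confidence interval -1.32 to -0.42, unadjusted p = 0.00383, adjusted p = 0.148, limma) and ran from -1.02 to -0.72 over the 4 fits with 1 library removed. In a limma fit of protein-coding genes alone, Hells passed at an adjusted p of 0.0482, whereas its p from the fit of all genes, adjusted over the protein-coding genes, gave 0.142. Of 15 proliferation markers, 11 had a log2 fold change above 0 and 4 below it, and none passed an unadjusted p under 0.05 in limma. Their sum was 278 and 236 FPKM in controls and 357 and 268 FPKM without Brg1, with overlap, and their part in the Hells value was not tested. The bases before the RefSeq start of Hells, chr19:38930740-38930914 on the plus strand, are shown in the same way as those of the SWI/SNF ATPases, with its 1 GC box in capitals. The Hells stretch also ends short of the RefSeq start.
Hells: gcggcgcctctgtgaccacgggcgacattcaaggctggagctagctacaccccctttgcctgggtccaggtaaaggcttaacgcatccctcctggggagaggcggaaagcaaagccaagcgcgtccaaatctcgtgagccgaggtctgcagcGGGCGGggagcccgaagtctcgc

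Atrx, which deposits histone H3.3 together with Daxx, was at 119 and 120 FPKM in controls and at 123 and 125 FPKM without Brg1 (log2 fold change 0.06, 95% confidence interval -0.26 to 0.38). Smarcad1, which acts during DNA replication and repair, was at 29.0 and 28.0 against 25.8 and 25.3 FPKM, and Smarcal1, which remodels stalled replication forks, at 8.63 and 8.11 against 7.33 and 7.68 FPKM. Neither overlapped between the groups, with log2 fold changes of -0.15 and -0.14 and adjusted p of 0.688 and 0.778 from limma. In the INO80 family, Ep400 was at 28.9 and 33.4 FPKM in controls and at 24.9 and 27.5 FPKM without Brg1, and Srcap, which loads H2A.Z, at 16.93 and 19.49 against 15.97 and 16.50 FPKM. Ino80 overlapped between the groups at 3.11 to 3.54 FPKM. The log2 fold changes of Ep400, Srcap and Ino80 were -0.24, -0.15 and -0.04, with adjusted p of 0.603, 0.729 and 0.953 from limma.

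Applied to the limma fit, the limits with which the study chose genes for ontology enrichment (p under 0.05, adjusted p under 0.4, a mean above 5 FPKM in either group and a fold change beyond 0.5 on the log2 scale of the group means) took 3 remodeler genes as lower, Smarca4, Chd4 and Hells, and none as higher. Of all tested genes, 4.37% met these limits as lower, 3.85% as higher and 8.22% in either direction.

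Partner subunits and relatives outside the 46 genes were examined in 5 lists, and limma called none of their 57 tested genes at an adjusted p under 0.05. At an unadjusted p under 0.05 from limma, 1 of the 57 passed (1.75%, beside 12.6% of all tested genes in either direction), Ruvbl1 among 24 partners of the INO80, SRCAP and TIP60 complexes. Ruvbl1, an AAA+ ATPase shared by these complexes, was at 22.9 and 22.2 FPKM in controls and at 28.5 and 30.5 FPKM without Brg1 (log2 fold change 0.37 ± 0.15 SE, adjusted p = 0.391, limma). Its partner Ruvbl2 overlapped between the groups at 15.95 to 21.77 FPKM, and the median of the 24 was -0.02. Second in this list by p was Ino80b, at 1.79 and 1.80 against 1.04 and 1.27 FPKM (log2 fold change -0.38, adjusted p = 0.636, limma).

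The 10 tested NuRD partners had a median log2 fold change of -0.10. Their smallest p-values belonged to Mbd2, which binds methylated DNA, at 34.1 and 33.2 FPKM in controls and 39.2 and 47.7 FPKM without Brg1 (0.35, adjusted p = 0.457), and to Cdk2ap1, at 9.04 and 7.04 against 5.54 and 6.14 FPKM (-0.39, adjusted p = 0.515, both from limma). The deacetylase Hdac1 was at 63.4 and 70.5 against 67.5 and 69.0 FPKM. Of the 6 tested ISWI partners, with a median of -0.13, Baz2b (11.9 and 13.3 against 10.8 and 10.5 FPKM) and Rbbp7 (128 and 115 against 111 and 104 FPKM) had the smallest p-values, with adjusted p of 0.626 and 0.631 from limma. Among 13 other Snf2-type ATPases, with a median of 0.00, Chd1l, which is recruited to DNA damage, was at 15.9 and 14.5 against 20.9 and 18.4 FPKM (0.35, adjusted p = 0.468) and Ercc6l2 at 14.1 and 16.4 against 12.2 and 11.1 FPKM (-0.36, adjusted p = 0.475, both from limma).

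Of 4 tested accessory SWI/SNF genes, Bcl11b and Bicral had the smallest p-values. Bcl11b, a transcription factor of T cells and ILC2s found in BAF, was at 1.39 and 1.49 FPKM in controls and at 0.51 and 0.57 FPKM without Brg1 (-0.66 ± 0.34 SE, adjusted p = 0.50, limma), beside the ILC2 marker sums given above, which were also below both controls, and the T cell marker sums, which overlapped. The T cell sums were mostly Lat, and Cd3e, Cd3d and Cd3g were lower without overlap. The part of these markers in the Bcl11b value was not tested. Bicral, which shares non-canonical BAF with Brd9, was at 3.13 and 4.89 against 6.19 and 5.63 FPKM (0.49, adjusted p = 0.512, limma), while its relative Bicra overlapped at 3.48 to 5.43 FPKM.

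Promoter sequence was compared as a property that the choice of genes did not use. RefSeq gave 42 windows of 300 bases, 250 before the start and 50 after it, for 37 of the 46 genes, and 11727 windows of tested genes. The median G and C content was 66.8% in the remodeler windows, 60.3% in those of tested genes and 52.7% in all 32851 windows, and the median number of CG dinucleotides was 30.5, 20.0 and 7.0. On either strand, the GC box GGGCGG was in 37 of 42 remodeler windows (88.1%), 60.5% of the windows of tested genes and 35.7% of all windows. The other motifs searched were the CCAAT box (CCAAT, in 31.0% of remodeler windows and 37.9% of windows of tested genes), the ETS core (CCGGAA, 23.8% and 28.3%), the E-box (CACGTG, 9.52% and 9.92%), TATAAA (2.38% and 7.43%) and the NRF1 motif (0 of 42 and 2.15%). The E2F motif TTTNNCGC was in windows of 4 genes, Arid1a, Brd7, Hells and Smarcd1 (9.52% of windows, beside 8.37% of those of tested genes). These matches are letters in a window and not sites shown to be bound, and remodeler windows of the same gene can overlap.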

How the data were processed

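RNA from ILC3s of 2 Brg1-sufficient and 2 Brg1-deficient libraries was sequenced as single-end poly(A)-selected cDNA. The authors mapped the reads with STAR 2.5 to GRCm38.p5, quantified genes with RSEM 1.2 and deposited 1 FPKM value for each gene in every library. Sorted FPKM values agreed within 1% across libraries at 99.3% of 13693 ranks, as quantile normalization gives, a step not given in the sources used here. A difference in total RNA would therefore not be seen. Read counts were not used here. Columns were matched to samples by genotype and number.

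The 14739 genes whose mean in one group or both exceeded 1 FPKM were tested with limma 3.58.1 in R 4.3.3 (lmFit, and eBayes with a trend) on log2(FPKM + 1), which understates changes of low genes, with Benjamini-Hochberg adjustment. Log2 fold changes are Brg1-deficient over Brg1-sufficient. Shares within gene pairs were tested by exact two-sided permutation over libraries. Promoter windows came from RefSeq (GRCm38.p6), and gene positions and transcript lengths from GENCODE M21. The script was tested on simulated data.

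Full statistics were given for Smarca4, Smarca2, remodeler genes with an adjusted or unadjusted p under 0.05 and the 5 largest log2 fold changes each way. The genes with the 2 smallest p-values in each partner list were named, most of them with fewer statistics. The genes, lists and tests were chosen with earlier results of these data known, and the promoter motifs after the values were seen. Alternatives were another pseudocount, 2 other filters, 2 other scalings, no variance trend, protein-coding genes only, removal of a length trend, the library number as a block and each library left out. The p-values of the fit over all genes were also adjusted over protein-coding genes alone, an alternative chosen after seeing the data. The study's own criteria for changed genes were an FDR under 0.05 and a mean above 1 FPKM, from another test, and its wider limits served its ontology analysis. 1 B cell marker is not reported here.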

Additional observations from a re-analysis of the deposited data

How the results depend on the processing

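With 2 libraries per group, depth unknown and values already scaled to one distribution, the precision of each remodeler gene rests on the spread between libraries. For each gene, limma draws that spread toward the one of tested genes at a like level. Over the settings that kept all libraries, the log2 fold change of Smarca4 was -0.83 to -0.77 with an adjusted p of 0.0717 to 0.414 from limma. Of the values that answer a comparison in settings that kept all libraries, 105 held and 3 did not. Tests had to keep their sign and their side of the threshold, and counts had to stay within 1.5 times the count. The median log2 fold change and the Smarca2 share had to move by less than the spread between libraries of a group. Part of the 105 could not move. Overlap of groups was read from the deposited FPKM in every setting, so only a change in the genes tested could alter those counts. The block and the variance trend leave log2 fold changes as they are, and the other scalings met values already scaled to one distribution. In a fit of protein-coding genes only, 1 remodeler gene (Hells, adjusted p = 0.0482 from limma) was lower in place of 0. With the p-values of the fit over all genes adjusted over the same genes, 0 were (Hells at 0.142), so the call came with the refit and not with the smaller number of tests. Without the variance trend, the number higher at an unadjusted p was 0 in place of 1, and the cause was not tested. Without a filter, which takes in more genes, the study's enrichment limits took 1 gene as lower in place of 3. Over all genes, limma called 33 lower and 12 higher, against 213 and 138 with protein-coding genes only, 73 and 41 with a mean FPKM above 5, 14 and 5 with the length trend removed, and 0 and 0 without a filter or without the variance trend, where 1400 and 1308, and 965 and 903, passed at an unadjusted p.

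Leaving out each library in turn, with the lone library assumed to vary like the other group, no remodeler gene was called at an adjusted p (0 to 0 in both directions). At an unadjusted p, 2 to 6 were lower (6 without Brg1-sufficient library 2, 2 without either Brg1-deficient library) and 0 to 2 were higher (2 without Brg1-sufficient library 1, 0 without either Brg1-deficient library). The enrichment limits took 0 to 3 as lower (0 without either Brg1-deficient library) and 0 to 1 as higher (1 without either Brg1-sufficient library). Without overlap, 18 to 25 were lower and 11 to 16 were higher, beside 29.3% to 39.5% and 37.2% to 41.0% of all tested genes. The median of the tested remodeler genes, 41 or 42 in these fits, ran from -0.10 to -0.05, Smarca4 from -0.84 to -0.71, Smarca2 from -0.18 to 0.00 (0.00 without Brg1-deficient library 1) and the difference in the Smarca2 share from 7.28 to 10.7 points. Chd7 ran from -1.08 to 0.20 and Smarcb1 from -0.05 to 0.57, and both changed sign without Brg1-sufficient library 1. Brd9 ran from 0.04 to 0.57, Smarca5 from -0.67 to -0.28, Smarcd2 from 0.25 to 0.61, Bcl7a from 0.21 to 0.48 and Brd7 from -0.56 to -0.28. At an unadjusted p, Hells missed 0.05 without Brg1-sufficient library 2 (0.0544), Chd4 without either Brg1-deficient library (0.0729 and 0.077) and Chd9 without any library but Brg1-sufficient library 1 (0.0639 to 0.119), all from limma.

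The library numbers do not pair the libraries by the sources used, and same-numbered deviations correlated at -0.000386. With the number as a block, Smarca4 had an adjusted p of 0.0956, Hells of 0.051 and Smarca2 of 0.883 from limma, and no remodeler gene was called, while calls over all genes went to 248 lower and 150 higher.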
